A study of Mus musculus with 10 samples.

Results

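The genes described here encode integrin subunits, laminin chains and the proteins that link laminins to the rest of the basement membrane. They were taken from a list of 37 gene symbols, chosen by family membership with earlier results of these data known. Of the 37, 36 had a probe set annotated to that symbol alone, among 18193 genes measured in all. These were 23 integrin subunits, 10 laminin chains and 3 linkers (Nid1, Nid2 and Hspg2). Itga11 had no such probe set and was not analysed here, and Itga8 was left out of the list on purpose.

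Integrins are cell-surface receptors built from 1 alpha and 1 beta subunit, which pair in set combinations and tie the matrix outside the cell to the actin skeleton within. Laminins are heterotrimers of an alpha, a beta and a gamma chain that polymerise on cell surfaces. Nidogens and the proteoglycan perlecan (Hspg2) join that sheet to the network of type IV collagen, and the whole is the basement membrane. In the developing kidney, mesenchyme that turns into epithelium acquires such a membrane, and integrins with the beta1 subunit are needed for branching of the ureteric bud.

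The tissue was metanephric mesenchyme of mouse embryos at E11.5, in 5 pools from Wnt9b-/- embryos (the mutant) and 5 pools of wild type, which the sample labels give as Wnt9b+/+. The series' design text instead gives the controls as Wnt9b+/-, and no strain is named. A pool held 25 to 30 mesenchymes, which had been separated from the bud by brief enzyme treatment, and went onto its own array. Wnt9b is the Wnt ligand that the bud sends to the mesenchyme. Mutant against wild type thus shows how adhesion genes stood in whole pools without that signal, including RNA of any other cells they held. In bulk pools, fewer cells of a type and less RNA per cell cannot be told apart.

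Markers of the labelled tissue were measured in every array. The summed signal of 7 cap mesenchyme genes (Six2, Cited1, Eya1, Gdnf, Osr1, Wt1 and Sall1) was 2822 to 5610 in mutant arrays, against 5757 to 7491 in wild-type arrays, so the groups did not overlap. For 4 genes of the renal stroma (Foxd1, Pdgfra, Tcf21 and Meis1) it was 7205 to 9642 in the mutant, against 6629 to 8122 in wild type. Ureteric bud genes were still present, with sums over 9 genes of 1447 to 4087 in the mutant and 1949 to 3265 in wild type. The brighter probe set of Wnt9b itself, which the bud expresses, gave 41.8 to 106 in the mutant and 78.2 to 99.7 in wild type (difference -0.24, limma adjusted p = 0.996), and whether its probes lie in the deleted part is not known here. A control for 18S ribosomal RNA split the arrays in 2 sets, 4 arrays at 1975 to 2587 and 6 at 92.4 to 322, with as many mutant as wild-type arrays in each. The high set held mutant replicates 4 and 5 and wild-type replicates 2 and 5, and differences within each set are given for the genes where they lay far apart or that are described in most detail.

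No integrin, laminin or linker gene passed the test. Signals are linear intensities of probe sets. Differences are mutant minus wild type in log2(signal + 1), called log2 signal below, and a gene was called at a limma p under 0.05 after Benjamini-Hochberg adjustment over all genes. Of the 36 genes 0 were called by limma, against 0.0055% of all genes (1 of 18193). At an unadjusted limma p under 0.05 there were 3 of 36, Lama2, Itgb8 and Itgal, against 5.49% of all genes, and a limma fit without moderation gave 1. All 3 were higher in the mutant, against 3.41% of all genes that were higher and 2.08% that were lower under the same rule. Their share, 8.33%, was near the background. The count was 1 without mutant replicate 2, mutant replicate 5 or wild-type replicate 3, and 0 without mutant replicate 3 or mutant replicate 4. In no gene of the 36 did the groups separate without overlap, against 1.21% of all genes. Across the 36 the median difference was +0.04, with 20 higher and 16 lower, beside a median of +0.02 and 54.9% higher over all genes. The limma p-values set each difference against the spread between these pools, moderated by that of all genes. Between the 18S sets, with genotype in the limma model, 4 of the 36 had an unadjusted p under 0.05, against 14.1% of all genes, and 2 did not overlap, against 4.85% of all genes.

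**Figure D1:**
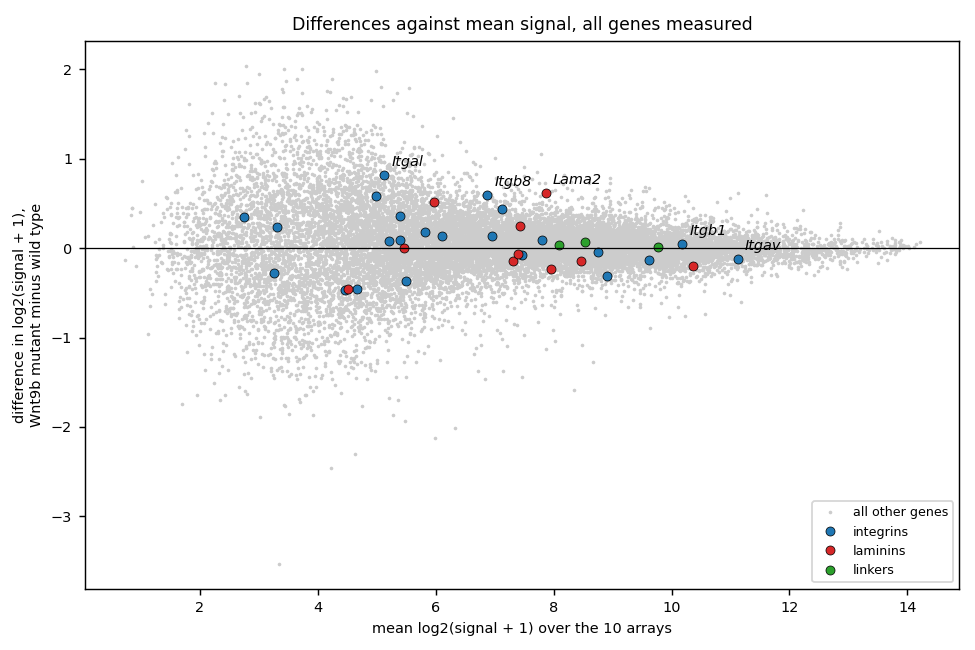
Difference in log2(signal + 1), Wnt9b mutant minus wild type, against the mean log2(signal + 1) over the 10 arrays, for all 18193 genes (grey) with the integrins, laminins and linkers coloured. The 36 genes lie within the cloud of all genes at their own signal, and their differences run from -0.47 (Itgb6) to +0.81 (Itgal).

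Intervals were wider in genes with low signal. For the 18 genes with a mean log2 signal of 7 or more, the 95% interval of the difference reached a median of 0.35 to either side, a factor of 1.27. For the 15 genes under 6 it reached 0.69, a factor of 1.62, and for Lamb3 1.66. Itga6 had the tightest interval, -0.28 to +0.19. In Itgb3, Itgb6, Itgb7, Itga7, Itgam and Lamb3 it reached over 1 log2 unit to either side, so that differences of that size were not detectable there.

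**Figure D2:**
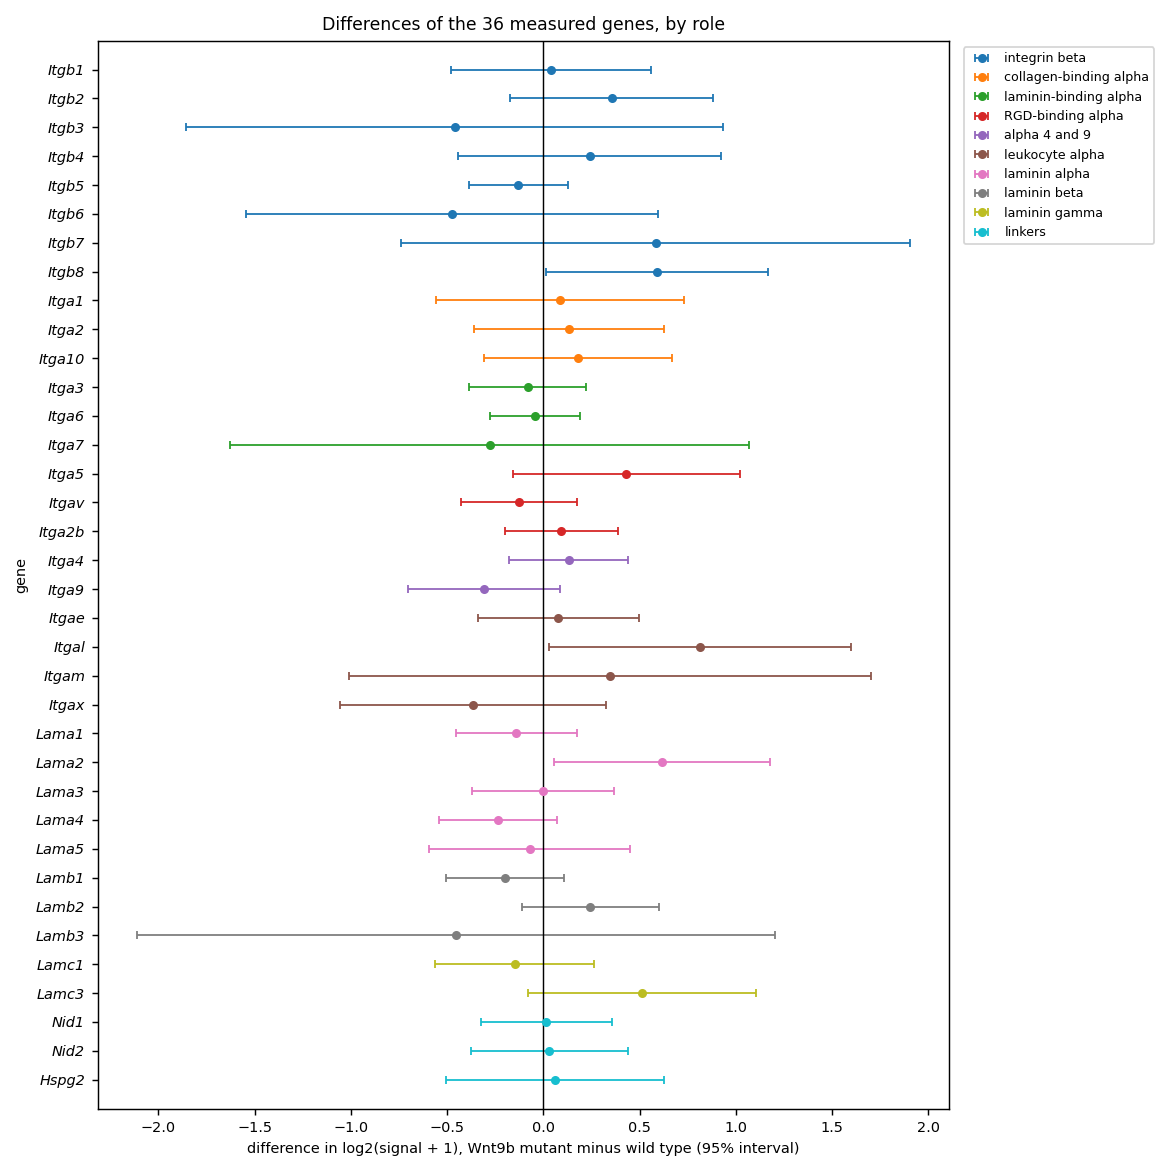
Difference in log2(signal + 1), Wnt9b mutant minus wild type, for each of the 36 genes (points) with the 95% interval from limma (bars), coloured by role. The intervals of Lama2, Itgb8 and Itgal lie above 0 before adjustment, all others include it, and the widest is that of Lamb3.

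The promoter windows of Lama2 and Itgb8 are shown because these are among the 3 genes with an unadjusted p under 0.05. Each runs from 250 bases before to 50 bases after the gene's start, from RefSeq on GRCm38.p6, given 5′ to 3′ on the gene's own strand. Lama2 lies on the minus strand at chr10:27616893-27617192 and Itgb8 on the minus strand at chr12:119238227-119238526. Capitals mark the core motif of TCF/LEF factors, which carry Wnt signals to DNA (CTTTGA, or TCAAAG on the other strand), and the GC box bound by Sp1 (GGGCGG or CCGCCC).
Lama2: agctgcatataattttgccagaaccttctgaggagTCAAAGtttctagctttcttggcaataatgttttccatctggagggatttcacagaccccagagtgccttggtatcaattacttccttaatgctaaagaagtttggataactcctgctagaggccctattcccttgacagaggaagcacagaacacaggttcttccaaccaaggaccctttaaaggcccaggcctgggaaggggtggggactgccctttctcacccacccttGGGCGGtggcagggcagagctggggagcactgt
Itgb8: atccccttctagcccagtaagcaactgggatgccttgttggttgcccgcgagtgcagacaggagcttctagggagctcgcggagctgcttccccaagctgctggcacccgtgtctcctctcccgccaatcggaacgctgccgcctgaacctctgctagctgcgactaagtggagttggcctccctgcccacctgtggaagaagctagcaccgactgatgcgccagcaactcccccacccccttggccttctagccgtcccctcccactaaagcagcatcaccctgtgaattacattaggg
The Lama2 window held 1 TCF/LEF core and 1 GC box, the motifs do not overlap, and its G and C content was 50.3%. In the Itgb8 window neither motif was found, at 60.7% G and C. Windows of 24 of the 37 listed genes were searched, 27 windows in all. Windows on 1 chromosome were left out for the listed genes but kept among those of all genes. The TCF/LEF core stood in 5 of the 27 (Itga1, Itga10, Itgam, Lama2 and Lamb2), or 18.5%, against 16% of 32851 windows of all genes. A GC box stood in 14, or 51.9%, against 35.7% of all windows. The TATA box (TATAAA or TTTATA) was also searched and stood in 0 of the 27, against 13.6% of all windows. A match describes the letters of a window and not a bound site.

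Lama2 encodes the laminin alpha2 chain, best known from the basement membranes of muscle and peripheral nerve. Its signals were 271, 191, 315, 404 and 300.4 in mutant replicates 1 to 5, against 289, 200.4, 122, 171 and 191 in wild-type replicates 1 to 5. The groups overlapped, since wild-type replicate 1 exceeded mutant replicates 1 and 2. The means were 8.18 ± 0.39 in the mutant and 7.56 ± 0.45 in wild type (log2 signal, SD, n = 5 each). This was a ratio of 1.53 and a difference of +0.62 (SE 0.25, 95% interval +0.06 to +1.18, limma adjusted p = 0.88, or 0.0342 before adjustment). Between genotypes it differed by +0.83 at high 18S and by +0.48 at low 18S, and unadjusted limma p ranged from 0.00934 to 0.0826 when single arrays were left out. Genes of the renal stroma were higher in the mutant in 4 of 4 measured, against 54.9% of all genes, with the sums given above. Their differences were +0.18 for Foxd1, +0.36 for Pdgfra, +0.01 for Tcf21 and +0.25 for Meis1. Genes of neural crest and neurons were higher in 3 of 4, with Sox10 at -0.01, Foxd3, which was dim, at +0.99, Stmn2 at +0.67 and Tubb3 at +0.25. Their sums were 493 to 757 in the mutant and 322 to 502 in wild type. Stmn2 made up the largest part of these sums, at 306 to 566 in the mutant and 179 to 263 in wild type. Genes of muscle were higher in 2 of 4, with Acta2 at -0.37, Tagln at -0.21, Myh11, which was dim, at +0.29 and Des at +0.06. The sums of the muscle genes were 1336 to 3777 in the mutant and 1842 to 2841 in wild type. The part of these cell types in the Lama2 values was not tested.

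The other laminin alpha chains lay nearer to no difference, and none passed. Lama1 encodes the alpha1 chain of early embryonic basement membranes and of the first nephron epithelium. Its signals were 126, 170.5, 151, 156 and 147 in the mutant, against 153, 159.6, 132, 199 and 189 in wild type, with a difference of -0.14 (95% interval -0.45 to +0.17). Those of Lama5, whose alpha5 chain takes the place of alpha1 as kidney epithelia mature, were 189, 259, 129, 117 and 159 in the mutant and 155, 155, 172, 248 and 147 in wild type, a difference of -0.07 (-0.59 to +0.45). Wild-type replicates 4 and 5 lay above every mutant array for Lama1 and mutant replicate 1 below every wild-type array, while the highest Lama5 signals came from mutant replicate 2 and wild-type replicate 4. A second, dimmer probe set of Lama5 was at 46.2 to 86.4 in the mutant and 81.3 to 115 in wild type, and it overlapped narrowly. Its difference was -0.60 (SE 0.19), with a limma p of 0.00883 before adjustment, the lowest of all 77 probe sets of these genes, and an adjusted p of 0.884 over all probe sets. The dimmest Lama5 probe set gave +0.29, so the 3 probe sets of this gene disagree. For Lama4, the alpha4 chain of vessels and mesenchyme, the mutant arrays gave 246, 244, 207, 265 and 184, against 306, 279, 241, 289.6 and 232 in wild type. Mutant replicates 3 and 5 lay below every wild-type array, and the difference was -0.24 (SE 0.14, limma adjusted p = 0.946). A much dimmer second probe set of Lama4 gave +0.82, which the mean of both, +0.29, follows. Lama3, an alpha chain of epidermal and other stratified epithelia, was dim, at 33 to 53.2 in the mutant and 37.1 to 48.5 in wild type, with a difference of -0.0033 (-0.31 at high 18S and +0.20 at low 18S).

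Among beta chains, Lamb1 is the widespread embryonic chain and Lamb2 the one that replaces it in mature glomeruli. Lamb1 signals were 1382, 1191, 917, 1285 and 1472 in mutant arrays, against 1314, 1519, 1416, 1419 and 1426 in wild type. The wild-type arrays lay close together, mutant replicate 3 was the lowest of all 10, and the difference was -0.20 (95% interval -0.51 to +0.11), or -0.09 without that array. All 4 probe sets of Lamb1 were lower in the mutant, at -0.16 to -0.39. Lamb2 signals were 142, 255, 174, 181 and 196 in the mutant, against 183, 152, 139, 168 and 148 in wild type, the highest being mutant replicate 2. Its difference was +0.24 (-0.11 to +0.60), or +0.13 without mutant replicate 2 and +0.34 without mutant replicate 1. Lamb3, a chain of epithelial laminin, ran from 4.49 to 71.9 in the mutant and from 9.98 to 41.3 in wild type, with a difference of -0.45 (-2.11 to +1.20). At high 18S it was -1.63 and at low 18S +0.33.

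The log2 ratio of Lamb2 to Lamb1 within an array was compared as 1 of 3 chain pairs. It was -2.72 ± 0.42 in the mutant and -3.17 ± 0.21 in wild type (SD, n = 5 each), a difference of +0.44 that did not pass (two-sided exact permutation p = 0.0714, adjusted p = 0.214 over the 3 pairs). Between genotypes it differed by +0.43 at high 18S and by +0.46 at low 18S. Ratios of Lama5 to Lama1 differed by +0.07 (exact permutation p = 0.770) and those of Nid2 to Nid1 by +0.02 (exact permutation p = 0.921), with adjusted p = 0.921 for each. With 5 arrays a group the smallest p this test can give is 0.00794. Such a ratio shows unequal change and not which chain changed.

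Of the gamma chains, Lamc1 is the partner of most laminins. Its signals of 267, 490.0, 267, 382 and 305 in the mutant, against 419, 386, 308, 346 and 396 in wild type, were spread so that all wild-type arrays lay within the mutant range, with mutant replicate 2 the highest and mutant replicates 1 and 3 the lowest (difference -0.15, 95% interval -0.56 to +0.27). Without mutant replicate 2 the difference was -0.29. Lamc3, a chain reported from nerve and other tissues, was dim at 53.4, 80.4, 88.2, 75.8 and 77.7 in the mutant and 47.3, 30.0, 80.0, 73.5 and 43.8 in wild type. Mutant replicates 2 to 5 and wild-type replicates 3 and 4 lay above the rest, for a difference of +0.51 (SE 0.27, limma adjusted p = 0.941), which was +1.06 at high 18S and +0.15 at low 18S. Over all 10 laminin chains 7 were lower and 3 higher (Lama2, Lamb2 and Lamc3), with a median of -0.11, though Lama4 and Lamc1 turned higher once their probe sets were averaged.

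All 3 linkers lay near no difference, at +0.02 to +0.06. Nid1, which encodes nidogen-1 and bridges the laminin gamma1 chain to type IV collagen, had signals of 865, 694, 907, 1105 and 872 in the mutant, against 973, 838, 678, 959 and 935 in wild type, with overlapping ranges and the highest array a mutant one (difference +0.02, 95% interval -0.33 to +0.36). Nid2, its paralogue, ran from 237 to 330.4 in the mutant and from 199 to 381 in wild type (+0.03). For Hspg2, the gene of perlecan, the signals were 441, 639, 379.5, 307 and 236 in the mutant and 466, 297, 373, 315 and 384 in wild type. Mutant replicate 2 was the highest of all arrays and mutant replicate 5 the lowest, so the mutant arrays spread over more than the wild-type ones (SD 0.54 and 0.26). The Hspg2 difference was +0.06 (-0.50 to +0.63), with -0.33 at high 18S and +0.32 at low 18S, and it was -0.13 without mutant replicate 2.

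**Figure D3:**
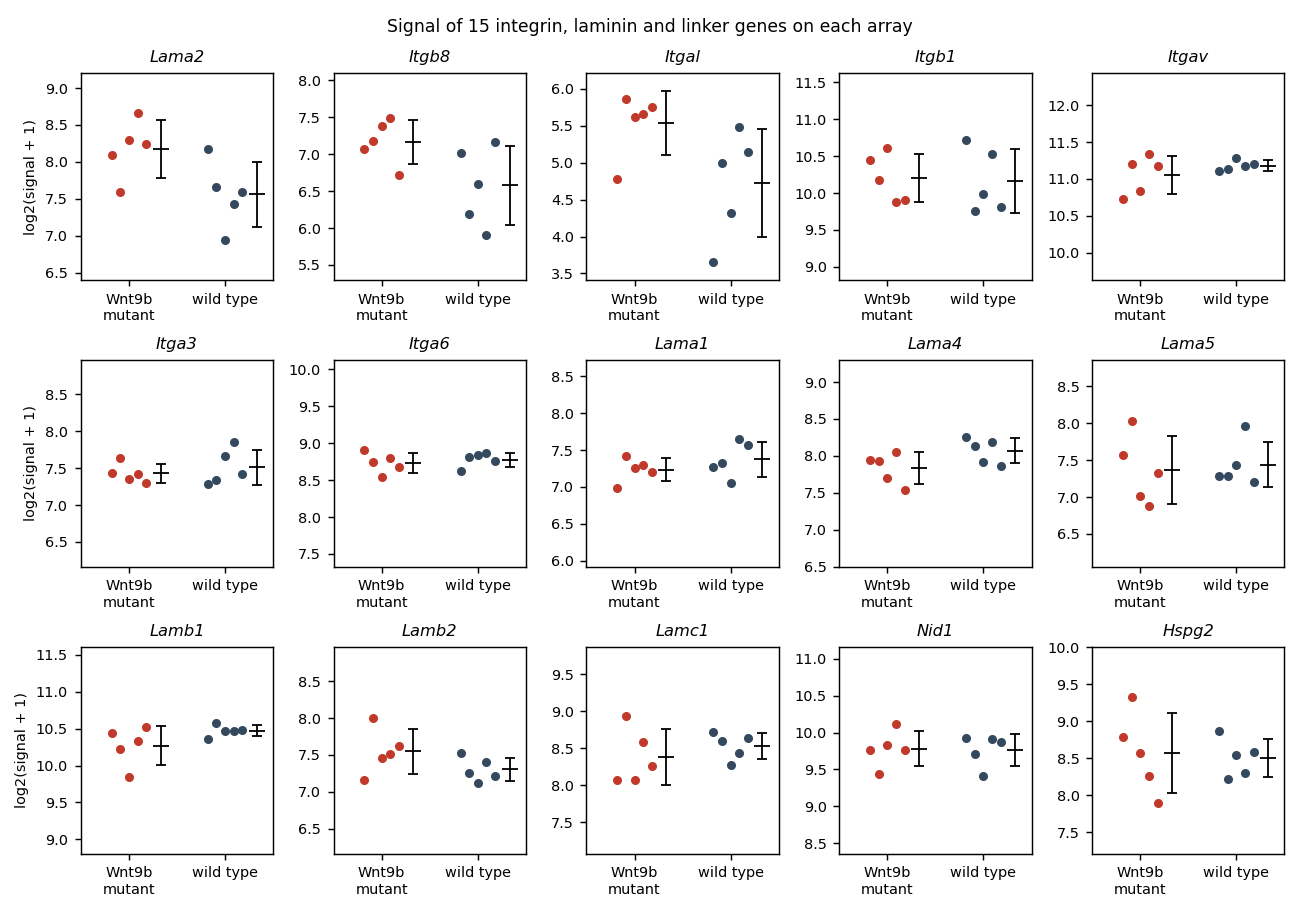
Log2(signal + 1) of 15 genes on each array, with the 5 Wnt9b mutant arrays (red) left of the 5 wild-type arrays (dark blue), and bars giving the mean ± SD of each group. All panels span the same height on the log2 scale, and the groups overlap in every panel.

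Itgb8 encodes the beta8 subunit, which pairs with alpha v and releases active TGF-beta from its latent form. Its signals were 133, 144, 166, 178 and 105 in mutant replicates 1 to 5, against 129, 72.1, 96.1, 59.1 and 143 in wild-type replicates 1 to 5. Wild-type replicates 1 and 5 lay within the range of the mutant arrays, while wild-type replicates 2, 3 and 4 lay below all of them. The means were 7.17 ± 0.30 in the mutant and 6.58 ± 0.53 in wild type (log2 signal, SD, n = 5 each). This was a ratio of 1.51 and a difference of +0.59 (SE 0.26, 95% interval +0.01 to +1.17, limma adjusted p = 0.898, or 0.0458 before adjustment). Between genotypes it differed by +0.42 at high 18S and by +0.70 at low 18S, and unadjusted limma p ranged from 0.0161 to 0.107 when single arrays were left out. A single probe set measured the gene, so no second reading was available.

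Itgb1, the common partner of more alpha subunits than any other beta subunit, gave 1398, 1155, 1562, 938 and 957 in the mutant, against 1685, 865, 1018, 1477 and 897 in wild type. High and low arrays occurred in both groups, and the difference was +0.04 (95% interval -0.48 to +0.56, limma adjusted p = 0.999). A second probe set nearly as bright gave +0.09 and another, at a mean log2 signal of 7.17, +0.10, while 3 dim ones gave -0.14 to -0.60. Itgb5, which pairs with alpha v as a vitronectin receptor, ran from 703 to 817 in the mutant and from 704 to 948 in wild type, a difference of -0.13 (-0.39 to +0.13), and its other 3 probe sets gave +0.09 to +0.12. The remaining beta subunits were dim. Itgb2, the leukocyte beta subunit, ran from 39.1 to 56.7 in the mutant and from 23 to 56 in wild type (+0.35), and Itgb7, another leukocyte subunit, from 17.8 to 66.8 in the mutant and from 8.9 to 65.7 in wild type (+0.58). Without wild-type replicate 4 these differences were +0.19 for Itgb2 and +0.24 for Itgb7. That of Itgb2 was -0.05 at high 18S and +0.63 at low 18S. Differences were -0.46 for Itgb3, the beta subunit of platelets and osteoclasts, +0.24 for Itgb4 of hemidesmosomes and -0.47 for Itgb6 of epithelia, at signals of 5.66 to 53.2 in the mutant and 3.87 to 91.4 in wild type over these 3 genes. Single arrays carried much of each, since the difference was -0.05 for Itgb3 without wild-type replicate 4, +0.01 for Itgb4 without wild-type replicate 1 and -0.10 for Itgb6 without mutant replicate 1. Whether the bud genes, with the sums given above, bear on the epithelial members Itgb4, Itgb6, Lama3 and Lamb3 was not tested.

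Alpha subunits that bind laminin lay close to no difference where they were bright. Itga3, whose alpha3 subunit is needed for normal glomerular basement membranes and collecting ducts, had signals of 172, 198, 162, 171 and 156 in the mutant, against 155, 161, 202, 230.4 and 170.3 in wild type (difference -0.08, 95% interval -0.39 to +0.22). Itga6, an alpha subunit of laminin receptors in many epithelia, had 479, 428, 373, 444 and 408 in the mutant, against 394, 448, 456, 465 and 432 in wild type. The Itga6 arrays spanned a narrow range in both groups, and the difference was -0.04 (-0.28 to +0.19). Itga7, a muscle laminin receptor, was near the bottom of the scale at 4.82 to 10.4 in the mutant and 1.96 to 27.4 in wild type (-0.28, with +0.25 at high 18S and -0.64 at low 18S).

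Among subunits that recognise the RGD sequence, Itgav partners 5 beta subunits that are all among the genes measured, beta1, beta3, beta5, beta6 and beta8. Its signals were 1696, 2363, 1825, 2585 and 2305 in the mutant, against 2204, 2252, 2499.7, 2312 and 2359 in wild type. Mutant replicates 1 and 3 lay below all other arrays and mutant replicate 4 was the highest, for a difference of -0.13 (95% interval -0.43 to +0.18). Thus the interval of Itgav, which pairs with Itgb8, spanned 0, and whether the 2 genes differ from each other in their response was not tested. Itga5, the fibronectin receptor's alpha subunit, ran from 113 to 218 in the mutant and from 67.4 to 163 in wild type (+0.43, -0.16 to +1.02), with -0.16 to -0.55 from its 3 dimmer probe sets. It was +0.23 without wild-type replicate 1, +0.08 at high 18S and +0.67 at low 18S. Itga2b, the alpha subunit of megakaryocytes and platelets, ran from 187 to 265 in the mutant and from 186 to 249 in wild type (+0.09, -0.20 to +0.39). Markers of erythroid cells and megakaryocytes were higher in the mutant in 6 of 8, against 54.9% of all genes. Those of megakaryocytes and platelets were Pf4 at +0.34, Gp9, which was dim, at +0.51, Gp1bb at +0.01 and Gp5 at -0.03. The rest were Gata1 at +0.56, Klf1 at +0.33, Hba-x at +0.19 and Hbb-y at -0.02. The part of these cells in the Itga2b values was not tested.

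The pair of related subunits Itga4 and Itga9 differed in opposite directions without passing. Itga9, a receptor for tenascin-C and other ligands, had 387, 288, 537, 505 and 475 in the mutant, against 617, 489.6, 517, 553 and 483 in wild type. Mutant replicates 1 and 2 were the lowest of the 10, and the difference was -0.31 (SE 0.18, limma adjusted p = 0.946), or -0.16 without mutant replicate 2. At high 18S it was +0.01 and at low 18S -0.52, and the other 2 probe sets gave -0.16 and +0.01. Itga4, a receptor for fibronectin and for VCAM-1, ran from 116 to 145 in the mutant and from 89.3 to 138 in wild type (+0.13, -0.18 to +0.44). The collagen receptors Itga1, Itga2 and Itga10 had low signals and differed by +0.09, +0.13 and +0.18, each with an interval spanning 0. At high 18S they were -0.41, +0.21 and +0.59, and at low 18S +0.42, +0.08 and -0.09.

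Itgal encodes the alpha L subunit, which pairs with beta2 as the leukocyte receptor LFA-1. Its signals were low, 26.4, 57.2, 48.2, 49.6 and 53 in the mutant, against 11.6, 31, 18.9, 43.9 and 34.3 in wild type. Mutant replicates 2 to 5 lay above every wild-type array, while mutant replicate 1 lay below wild-type replicates 2, 4 and 5. The means were 5.53 ± 0.44 in the mutant and 4.72 ± 0.73 in wild type (log2 signal, SD, n = 5 each). The difference of +0.81 did not pass (SE 0.35, 95% interval +0.03 to +1.60, limma adjusted p = 0.887, or 0.0434 before adjustment). With a pseudocount of 16 the difference was +0.54, and a second probe set of similar signal gave +0.42. At high 18S it was +0.64 and at low 18S +0.93.

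The other leukocyte alpha subunits were also dim. Itgae, the alpha E subunit of mucosal lymphocytes, differed by +0.08, Itgam, the macrophage alpha M subunit, by +0.35, and Itgax, the alpha X subunit, by -0.37, none with an interval clear of 0. Itgam signals did not exceed 18.5 on any array, and its difference was -1.16 at high 18S and +1.35 at low 18S. Markers of macrophages and leukocytes (Ptprc, Csf1r, Adgre1, Cd68, C1qa, C1qb, C1qc, Tyrobp, Fcer1g and Aif1) were higher in the mutant in 10 of 10, against 54.9% of all genes, with none called. Their summed signal was 1431 to 2874 in the mutant and 1499 to 2199 in wild type, and none lay under 50 on every array. Their part in the values of Itgal, Itgb2 and Itgb7 was not tested.

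**Figure D4:**
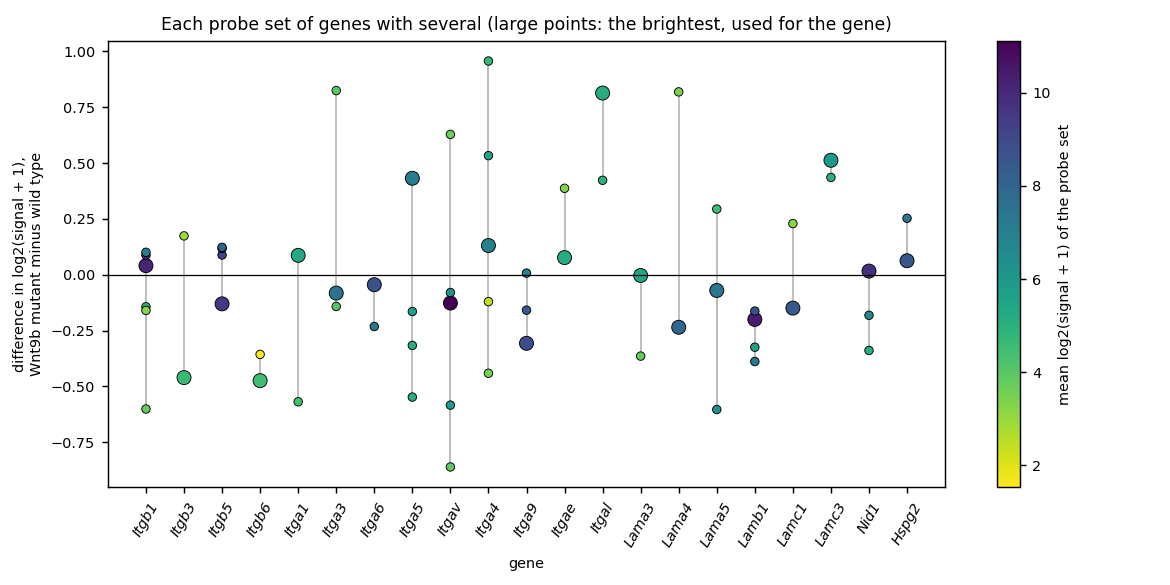
Difference in log2(signal + 1), Wnt9b mutant minus wild type, of each probe set (points) for the 21 genes with more than 1, coloured by the probe set's mean log2(signal + 1); large points mark the brightest, which stands for the gene. In Itga3, Itga4, Itga5, Itgav and Lama4 the dim probe sets scatter over both sides of 0 or lie opposite to the bright one.

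Partners of these receptors and chains were counted from a list of 51 genes, of which 48 were measured and Spp1, Fermt1 and Ptk2 were not analysed here. None was called by limma, and 3 had an unadjusted p under 0.05, all higher in the mutant, or 6.25% beside 5.49% of all genes. That count was 5 without mutant replicate 2 or mutant replicate 3, and 1 without mutant replicate 4, wild-type replicate 3 or wild-type replicate 5. Of 20 basement membrane partners, among them the 6 type IV collagen chains, agrin and dystroglycan, 9 were higher and 11 lower (median -0.01), with 0 at an unadjusted limma p under 0.05. Of 7 interstitial ligands 6 were higher (median +0.22), beside 54.9% of all genes. Postn, which encodes periostin, had signals of 774, 650.0, 534, 841 and 543 in the mutant, against 576, 381, 409.8, 499 and 474 in wild type, a difference of +0.50 (SE 0.17, limma adjusted p = 0.785). Wild-type replicate 1 reached into the mutant range and the other wild-type arrays lay below it. Emilin1, an elastic fibre protein, ran from 1133 to 1314 in the mutant and from 839 to 1190.0 in wild type (+0.32, limma adjusted p = 0.858). Of 21 genes of the adhesion complex inside the cell, such as the talins, the kindlins, vinculin and Ilk, 16 were higher (median +0.13). Of these Itgb1bp1, a regulator that binds the beta1 tail, had an unadjusted limma p of 0.0491 (difference +0.24, adjusted p = 0.905), with 364 to 489 in the mutant and 353 to 391 in wild type.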

How the data were processed

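Biotin-labelled cRNA from 10 RNA pools was hybridised to Affymetrix mouse genome arrays, per the labels' protocols. The authors deposited 1 table of linear intensities, 1 value for each probe set and array, and their summarisation method was not given in the sources used. Each array's mean after trimming 2% at either end was 250.0, so arrays had been scaled before deposit. From 45101 probe sets, 64 controls were left out, and 34945 had 1 gene symbol (platform annotation, symbols updated through RefSeq of GRCm38.p6). The brightest probe set on log2(signal + 1) stood for each of 18193 genes. Mutant was compared with wild type in limma 3.58.1 under R 4.3.3 (lmFit, eBayes, two-sided, Benjamini-Hochberg over all genes), which was tested on simulated data. The number of arrays limits the precision. Replicate numbers follow accession order and pair nothing. In the 3 pairs of arrays with shared title wording, deviations from group means correlated at 0.0982, 0.0987 and 0.143. Values are given for every array for genes at an unadjusted p under 0.05 or without overlap and for 12 further kidney genes. Some other genes (Lamc3, Itga9 and partners) were chosen for such detail after their values were seen. Members and lists were chosen with earlier results of these data known. Alternatives covered probe sets, dim genes, normalization, pseudocount, moderation, blocks and single arrays.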

Additional observations from a re-analysis of the deposited data

Results flagged for a closer look

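For the 36 genes, the 3 named partner genes and the 3 chain ratios, 84 sets of 5 values were searched for a lone high or low array by Dixon's criterion. About 1 set in 20 meets it by chance, which is 4.2 here, and 2 met it. For Itgal it was mutant replicate 1, low at a log2 signal of 4.77 (a signal of 26.4) when the other mutant arrays lay between 5.62 and 5.86. For Itgb1bp1 it was wild-type replicate 1, high at 8.61 when the remaining wild-type arrays lay between 8.47 and 8.50.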

How the results depend on the processing

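No integrin, laminin or linker gene was called by limma in any of 781 alternatives (lowest adjusted p 0.555, Lama2 without the dimmest 40% of genes). Of the 21 settings other than single probe sets, 13 genes kept their sign in each one that measured them. The setting without the dimmest 40% of genes measured only 20 of the 36. The number of the 36 at an unadjusted p under 0.05 was 1 after quantile normalization, 1 without moderation, 1 within the low-18S arrays and 1 with the replicate block for shared title wording (the titles do not establish pairs), and 0 to 4 when single arrays were left out. The partner count was 1 with the mean of all probe sets, 1 within the low-18S arrays, 1 without mutant replicate 2 and wild-type replicate 3 (the arrays brightest in the spiked hybridisation controls), and 1 to 5 when single arrays were left out.

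Signs turned in 80 of the 781 alternatives, and the cause was not tested. Not all 781 could turn a sign. Settings that changed only the moderation, added a block or left out dim genes gave the same differences as the main fit. So did the mean of all probe sets for genes with a single probe set. These settings are also among those in which kept signs were counted above. With the mean of all probe sets the differences were -0.11 for Itgb1, 0.0495 for Itgb5, -0.24 for Itga1, 0.20 for Itga3, -0.15 for Itga5, 0.29 for Lama4, 0.0398 for Lamc1 and -0.17 for Nid1. With a pseudocount of 16, Lama3 was at 0.00068. Within the high-18S arrays they were -0.054 for Itgb2, -0.41 for Itga1, 0.25 for Itga7, 0.083 for Itgav, -0.044 for Itga2b, -0.046 for Itga4, 0.0103 for Itga9, -0.0399 for Itgae, -1.16 for Itgam, -0.33 for Hspg2 and -0.12 for the Nid2 to Nid1 ratio. Within the low-18S arrays they were -0.0021 for Itgb1, -0.094 for Itga10, 0.20 for Lama3, 0.33 for Lamb3 and -0.072 for Nid1. Without mutant replicate 2 and wild-type replicate 3 they were -0.0091 for Itga2b, 0.0027 for Lama3, -0.024 for Nid2 and -0.12 for Hspg2. Of 41 further single probe sets 21 turned, at -0.14, -0.60 and -0.16 for Itgb1, 0.17 for Itgb3, 0.088, 0.12 and 0.12 for Itgb5, -0.57 for Itga1, 0.82 for Itga3, -0.16, -0.32 and -0.55 for Itga5, 0.63 for Itgav, -0.44 and -0.12 for Itga4, 0.0072 for Itga9, 0.82 for Lama4, 0.29 for Lama5, 0.23 for Lamc1, and -0.18 and -0.34 for Nid1.

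Leaving out single arrays gave ranges of -0.061 to 0.18 for Itgb1, -0.056 to 0.32 for Itga1, -0.14 to 0.0034 for Itga3, -0.088 to 0.0021 for Itga6, -0.74 to 0.077 for Itga7, -0.016 to 0.17 for Itgae, -0.079 to 0.089 for Lama3, -0.24 to 0.0603 for Lama5, -0.93 to 0.0028 for Lamb3, -0.073 to 0.10 for Nid1, -0.078 to 0.16 for Nid2 and -0.13 to 0.23 for Hspg2, and of -0.048 to 0.21 for the Lama5 to Lama1 ratio and -0.054 to 0.10 for the Nid2 to Nid1 ratio. The median difference of the 36 genes ranged from -0.00696 to 0.086. For the 15 genes with a mean log2 signal under 6 the median interval reached 0.69 to either side, and signal over background was not measured here.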

Other observations

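Itgb1 signals separated by the 18S sets, each of which holds both genotypes. They were 865 to 957 in the 4 arrays with high 18S signal and 1018 to 1685 in the other 6, with no overlap, and mutant and wild-type arrays stood on both sides. With genotype in the limma model the difference, high minus low, was -0.58 (SE 0.16, limma adjusted p = 0.220), which did not pass over all genes. Itgb5 was at 703 to 728 in the high-18S arrays and at 746 to 948 in the others, again with no overlap (difference -0.21, limma adjusted p = 0.350). These values come from the brightest probe set of each gene, and the other probe sets were not compared between the 18S sets. Of the 36 genes 0 were called by limma between the sets, against 0.0055% of all genes, and 4 had an unadjusted p under 0.05, Itgb1, Itgb2, Itgb5 and Hspg2, against 14.1% of all genes. The sets did not overlap in 2 of the 36, Itgb1 and Itgb5, against 4.85% of all genes, so neither count stood out from the background. The sets were defined from the arrays' own control signal, and this comparison was added after the data were seen.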
